A study of Mus musculus with 9 samples.

Results

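The 6 microRNA (miRNA) hairpins mir-21, mir-146a, mir-146b, mir-155, mir-132 and mir-212, which are known to respond to inflammation, were followed in extracellular vesicles (EVs) of the lung after inhalation of ozone (O3). Every row of these 6 hairpins in the deposited table was taken, both arms of the hairpin and every isomiR, which is a variant of the mature miRNA whose 5′ end is shifted by a number of bases given as a suffix. This gave 32 of the 1308 entries of the table, of which 8 were mature miRNAs and 24 were isomiRs. The hairpin mir-21 had 11 entries, mir-146b 8, mir-132 5, mir-146a 4, mir-155 3 and mir-212 1.

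The mice were female C57BL/6J and 8 to 10 weeks old. They breathed filtered air (FA), 1 ppm O3 or 2 ppm O3 for 3 h in a whole-body chamber, and bronchoalveolar lavage fluid (BALF) was collected on the following day. EV RNA was sequenced in 9 pools of BALF, 3 for each exposure, with 4 mice per pool in FA and 3 mice per pool in each O3 group. The number of mice per pool and the exposure to O3 therefore cannot be told apart. The paper lists a single exposure run for each O3 concentration, so the run and the concentration cannot be told apart either. The spread between pools of an O3 group is therefore not a spread between exposure runs. Values are RPMMM, the reads of an entry scaled to a fixed total of miRNA reads in that pool.

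In macrophages and epithelial cells, bacterial products and cytokines activate the transcription factor NF-κB, which raises the transcription of several miRNA genes. The miR-146 family acts as a brake on this pathway through the adaptor proteins TRAF6 and IRAK1, whereas miR-155 dampens inhibitors of it such as SHIP1 and SOCS1. miR-21 is abundant in most tissues and represses PDCD4, and miR-132 and miR-212 are made from a shared transcript that responds to CREB. A miRNA recognises its targets mainly through its seed, which is bases 2 to 8 of the mature miRNA.

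All 6 hairpins matched a gene of the RefSeq table (GRCm38.p6), which held 12 mature sequences, and each of these was found unchanged inside its hairpin in the mm9 genome that was used for the deposited values. The arms on which the results turn are printed with the seed in capitals, because the seed sorts them into families.
miR-21a-5p: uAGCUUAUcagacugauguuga
miR-21a-3p: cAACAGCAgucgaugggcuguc
miR-146a-5p: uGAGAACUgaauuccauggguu
miR-146b-5p: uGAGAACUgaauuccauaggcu
miR-155-5p: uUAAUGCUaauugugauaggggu
miR-132-3p: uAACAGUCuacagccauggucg
miR-212-3p: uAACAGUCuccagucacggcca
The seed GAGAACU was shared by miR-146a-5p and miR-146b-5p, and the seed AACAGUC by miR-132-3p and miR-212-3p. The miR-146 pair was identical at 20 of 22 bases. Counted from the 5′ end of miR-146a-5p, the differences were G18A and U21C, both near the 3′ end, so that a read that ends early can be assigned to either miRNA and their split is uncertain to that extent. The differences are shown in capitals for this pair only.
miR-146a-5p: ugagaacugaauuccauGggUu
miR-146b-5p: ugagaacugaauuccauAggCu
The pair of miR-132-3p and miR-212-3p was identical at 17 of 22 bases, with A10C, C14U, U17C, U20C and G22A relative to miR-132-3p.

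In mm9, the mir-21 hairpin lay on chromosome 11 from 86397569 to 86397660 on the minus strand, where the annotation places an exonic untranslated part of Vmp1 on the same strand. mir-146a lay on chromosome 11 from 43187899 to 43187963 on the minus strand, with no other gene annotated over it. mir-146b lay on chromosome 19 from 46417252 to 46417360, within a Tmem180 intron and on the same (plus) strand. mir-155 lay on chromosome 16 from 84714385 to 84714449, plus strand, within an exon of the non-coding Mir155 host transcript. mir-212 (chromosome 11 from 74986890 to 74986980) and mir-132 (chromosome 11 from 74987167 to 74987267) lay with 186 bases between them, both plus-strand and within intronic sequence of the non-coding gene 1700016P03Rik.

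The depth and the total set what these values can show. The pools held 535548 to 773268 miRNA reads in FA, 555111 to 860955 after 1 ppm O3 and 281543 to 300907 after 2 ppm O3, as estimated from the spacing of low values. No value above 0 stood for fewer than about 10.0 reads, which was 11.8 to 18.9 RPMMM in the FA and 1 ppm O3 pools and 34.3 to 37.3 RPMMM in the 2 ppm O3 pools, so an entry listed at 0 may still have been present below that level. In addition, the hairpin mir-2137 and 4 hairpins of the mir-51xx series (mir-5115, mir-5109, mir-5105 and mir-5102) together held 0.359% to 0.920% of the total in the FA pools, 5.51% to 10.9% after 1 ppm O3 and 41.6% to 47.2% after 2 ppm O3. Since all values of a pool share 1 total, the shares of the other miRNAs moved down with this rise, and over all 461 entries tested the log2 fold change had a median of -0.83 after 2 ppm O3. For the mature members on which the results turn, values under other scalings are therefore given too, and ratios between members within a pool, which no scaling changes, are given afterwards.

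Of the 32 entries, 14 had a mean above 50 RPMMM over the 9 pools and were tested, 8 of mir-21, 3 of mir-146b and 1 each of mir-146a, mir-155 and mir-132. No entry of mir-212 was tested. Differential expression (DE) required a limma adjusted p below 0.05 over all 461 entries and a fold change of at least 2. None of the 14 was DE after 1 ppm O3 compared with FA, against 13.2% of all entries tested. In this comparison 2 of the 14 had an unadjusted p below 0.05 in limma, against 27.3% of all entries. The all-entry share depended on the scaling: 48 entries were higher and 13 lower as deposited, whereas 1 was higher and 8 lower of 441 without the 5 hairpins in the total. After 2 ppm O3, 2 of the 14 were DE compared with FA, both lower, namely miR-146b-5p and miR-155-5p, against 43.6% of all entries DE and 29.3% DE and lower. For 2 ppm O3 compared with FA, 66 of all entries were higher and 135 lower as deposited, 87 higher and 34 lower with median-of-ratios scaling, and 43 higher and 26 lower without the 5 hairpins; under either of these scalings no member was DE. Between 2 ppm and 1 ppm O3, none of the 14 was DE in limma, against 33.6% of all entries. At an unadjusted p below 0.05 there were 7 of the 14, against 53.6% of all entries. The median log2 fold change of the 14 entries was 0.03 after 1 ppm O3, where that of all entries was -0.08, and -0.67 after 2 ppm O3, where that of all entries was -0.83. The 3 comparisons share pools, so that they are not independent of each other.

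**Figure D1:**
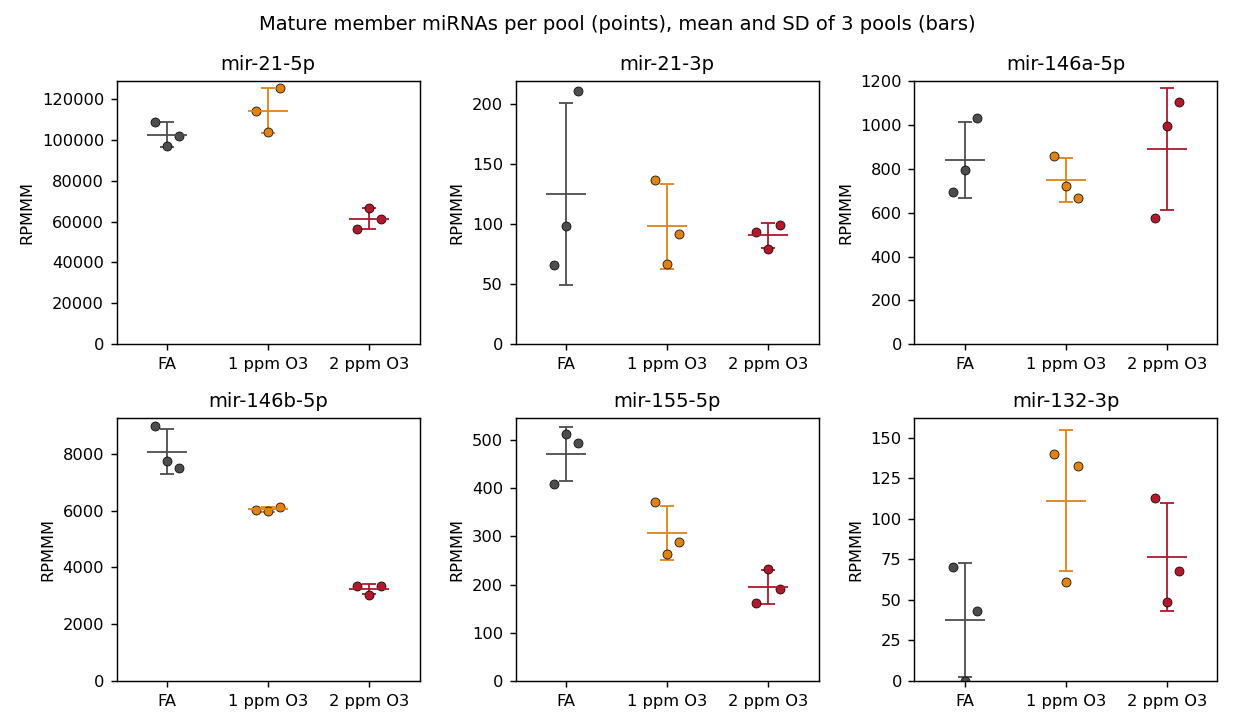
The 6 mature members with a mean above 50 RPMMM in each pool (points, y axis in RPMMM from 0), with the mean and SD of the 3 pools of each exposure (bars). miR-146b-5p and miR-155-5p stepped down from FA to 1 ppm O3 to 2 ppm O3 without overlap, miR-21-5p was lower in the 2 ppm O3 pools only, and miR-146a-5p overlapped between all exposures.

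miR-146a-5p and miR-146b-5p, the family that restrains signalling to NF-κB, had different levels and different patterns in the same pools. miR-146b-5p was measured at 8978, 7747 and 7489 RPMMM in the FA pools, at 6016, 5973 and 6138 RPMMM after 1 ppm O3 and at 3334, 3021 and 3351 RPMMM after 2 ppm O3. The 3 exposures did not overlap, and each step of the concentration brought a lower level. Compared with FA, the log2 fold change of miR-146b-5p was -0.41 after 1 ppm O3 (SE 0.0997, limma adjusted p = 0.0204), below the fold change required for DE, and -1.32 after 2 ppm O3 (SE 0.0997, limma adjusted p = 3.61e-06). The difference after 1 ppm O3 did not pass in every setting: its limma adjusted p was 0.0581 with median-of-ratios scaling, 0.113 without the 5 hairpins, 0.137 in limma without the variance trend and 0.0625 with no filter. It was 0.0522 without FA pool 1, 0.0518 without FA pool 2, 0.0737 without 1 ppm O3 pool 1 and 0.0528 without 1 ppm O3 pool 2, while the log2 fold change stayed between -0.46 and -0.30 in all settings run. Relative to the median of all entries after 2 ppm O3, the difference was -0.49. The level was also lower after 2 ppm than after 1 ppm O3, with a log2 fold change of -0.90 (limma adjusted p = 0.000109). This difference was -0.29 with median-of-ratios scaling (limma adjusted p = 0.0623) and -0.15 without the 5 hairpins (limma adjusted p = 0.275), and passed under neither.

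The decrease of miR-146b-5p after 2 ppm O3 was smaller when the pools were scaled in another way. It was -0.62 on the log2 scale with median-of-ratios scaling (limma adjusted p = 0.000969) and -0.45 when mir-2137 and the 4 mir-51xx hairpins were left out of the total (limma adjusted p = 0.00658). Under both scalings it passed the adjusted p but not the fold change. All 27 pairs of pools from different exposures fell with the concentration under the deposited scaling and under these scalings (two-sided exact permutation p = 0.00119, the smallest these pools allow). The adjusted p of this trend over all entries was 0.00704 as deposited, 0.00879 with median-of-ratios scaling and 0.0292 without the 5 hairpins.

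miR-146a-5p was measured at 697, 793 and 1031 RPMMM in the FA pools, at 860, 721 and 665 RPMMM after 1 ppm O3 and at 577, 997 and 1104 RPMMM after 2 ppm O3. The pools of all 3 exposures overlapped, and the lowest and the highest value both came from 2 ppm O3 pools. The log2 fold change compared with FA was -0.15 after 1 ppm O3 (limma adjusted p = 0.811) and 0.05 after 2 ppm O3 (95% interval -0.54 to 0.65, limma adjusted p = 0.876). Relative to the median of all entries after 2 ppm O3, miR-146a-5p stood 0.88 higher on the log2 scale. Its log2 fold change after 2 ppm O3 was 0.75 with median-of-ratios scaling (limma adjusted p = 0.036) and 0.91 without the 5 hairpins (limma adjusted p = 0.0199), in each case below a fold change of 2.

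The ratio of miR-146a-5p to miR-146b-5p within a pool does not depend on the scaling. It was 0.0776, 0.102 and 0.138 in the FA pools, 0.143, 0.121 and 0.108 after 1 ppm O3 and 0.173, 0.330 and 0.329 after 2 ppm O3. The 2 ppm O3 pools all lay above the FA and 1 ppm O3 pools, which overlapped each other. The ratio was 1.37 higher after 2 ppm O3 than in FA on the log2 scale (SE 0.392, two-sided exact permutation p = 0.1, the smallest that 3 pools against 3 allow). Of the 27 pairs of pools, 25 rose with the concentration (two-sided exact permutation p = 0.00952). miR-146b-5p was the more abundant of the pair in every pool.

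miR-155-5p, which is made from the Mir155 host transcript in activated macrophages and lymphocytes, was measured at 408, 513 and 495 RPMMM in the FA pools, at 371, 263 and 288 RPMMM after 1 ppm O3 and at 163, 232 and 190 RPMMM after 2 ppm O3. The exposures did not overlap, and the level was lower at each concentration. The log2 fold change compared with FA was -0.63 after 1 ppm O3 (SE 0.252, limma adjusted p = 0.146) and -1.28 after 2 ppm O3 (SE 0.252, limma adjusted p = 0.00193). All 27 pairs of pools fell with the concentration (two-sided exact permutation p = 0.00119, adjusted p = 0.00704). The values after 2 ppm O3 rest on 49 to 67 reads per pool.

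The call for miR-155-5p did not hold when the scaling was changed. After 2 ppm O3 its log2 fold change was -0.59 with median-of-ratios scaling (limma adjusted p = 0.096), -0.97 without mir-2137 in the total (limma adjusted p = 0.0113) and -0.42 without the 5 hairpins (limma adjusted p = 0.242). With the last of these scalings 8 of the 27 pairs rose and the trend no longer passed (two-sided exact permutation p = 0.277). miR-155-3p is not listed in the table, and the isomiRs of miR-155-5p were above 0 in FA pool 3 and 1 ppm O3 pool 3 only.

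**Figure D2:**
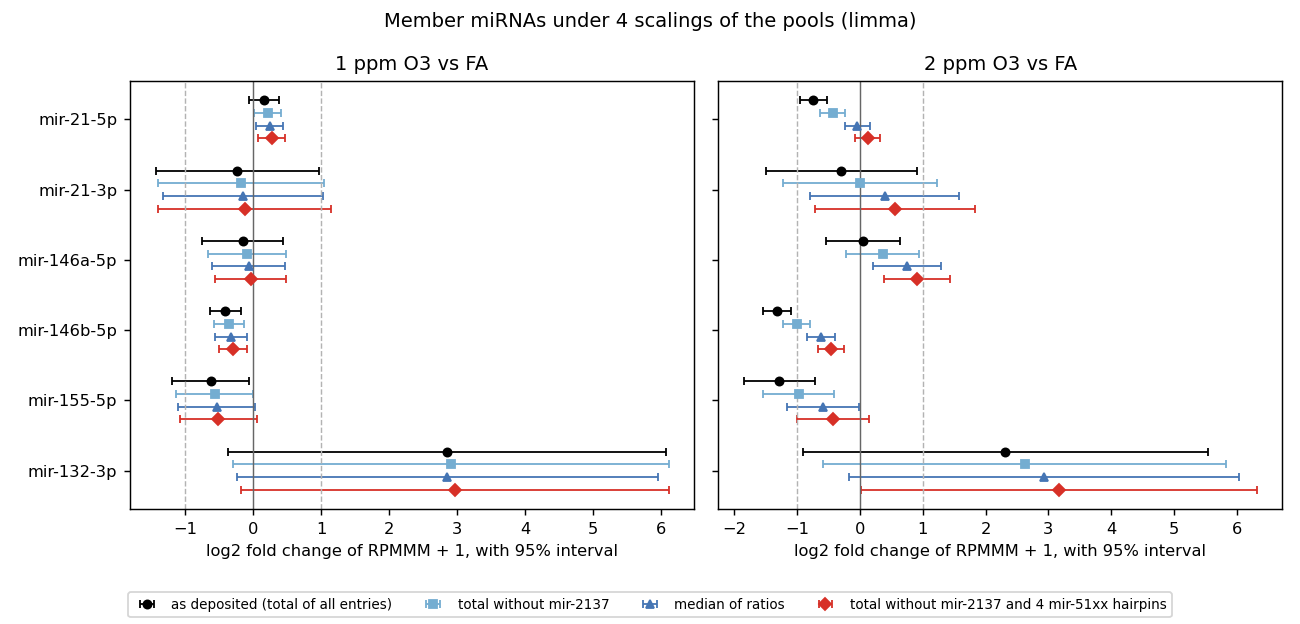
log2 fold change of RPMMM + 1 of the 6 mature members compared with FA (x axis) after 1 ppm O3 (left) and 2 ppm O3 (right), with 95% intervals from limma, under 4 scalings of the pools; dashed lines mark a fold change of 2. The scalings barely separate after 1 ppm O3, whereas after 2 ppm O3 miR-21-5p moves from -0.74 as deposited to 0.12 without the 5 hairpins and miR-146b-5p stays below 0 at -1.32 to -0.45.

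miR-21-5p was the most abundant of all entries in FA and after 1 ppm O3 (rank 1) and had rank 2 after 2 ppm O3. It was measured at 108867, 96805 and 101698 RPMMM in the FA pools, at 113937, 103607 and 125317 RPMMM after 1 ppm O3 and at 56468, 66781 and 61125 RPMMM after 2 ppm O3. The FA and 1 ppm O3 pools overlapped, and the 2 ppm O3 pools all lay below them. The hairpin held 10.7% of the miRNA reads in FA, 12.0% after 1 ppm O3 and 6.45% after 2 ppm O3. The log2 fold change of miR-21-5p compared with FA was 0.15 after 1 ppm O3 (SE 0.097, limma adjusted p = 0.393) and -0.74 after 2 ppm O3 (SE 0.097, limma adjusted p = 0.000174), below the fold change required for DE.

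This lower level of miR-21-5p after 2 ppm O3 was close to that of the median entry, from which it differed by 0.09 on the log2 scale. With median-of-ratios scaling the log2 fold change was -0.04 (95% interval -0.24 to 0.16), and without the 5 hairpins it turned to 0.12 (95% interval -0.08 to 0.32). After 1 ppm O3 the log2 fold change was 0.24 and 0.27 under these scalings (limma adjusted p = 0.116 and 0.131).

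The other arm, miR-21-3p, was listed between 66.1 and 211 RPMMM in the 9 pools, or 23 to 113 reads. It held 0.133% ± 0.0568 of the hairpin in FA (SD, n = 3 pools), 0.0819% ± 0.0284 after 1 ppm O3 and 0.142% ± 0.0239 after 2 ppm O3. The 3 exposures overlapped (two-sided exact permutation p = 0.3 for 1 ppm O3 and 0.8 for 2 ppm O3 compared with FA). The smallest p that this test allows for 3 pools against 3 is 0.1, so it could not pass. The share of the lower arm was below the median of 112 hairpins with both arms listed, which was 5.29% over all pools.

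miR-132-3p and its neighbour mir-212, which are known from CREB-responsive transcription, rest on few reads. By mean level over all pools, miR-132-3p had rank 388 and miR-212-5p rank 1045 of the 1308 entries. miR-132-3p was listed at 70.0, 0 and 42.95 RPMMM in the FA pools, at 139.8, 61.25 and 132.4 RPMMM after 1 ppm O3 and at 113, 48.4 and 67.5 RPMMM after 2 ppm O3. The exposures overlapped, and the values stand for 14 to 114 reads where above 0. The log2 fold change compared with FA was 2.85 after 1 ppm O3 (95% interval -0.38 to 6.08, limma adjusted p = 0.243) and 2.32 after 2 ppm O3 (95% interval -0.91 to 5.54, limma adjusted p = 0.188), and its size depends on the 1 RPMMM that was added before the log, since FA pool 2 was listed at 0. Without FA pool 2 it was 0.92 after 1 ppm O3 (limma adjusted p = 0.493) and 0.38 after 2 ppm O3 (limma adjusted p = 0.644).

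In FA pool 2 the reads of this arm were listed under an isomiR instead, miR-132-3p_-_2, at 38.8 RPMMM. When all entries of an arm were summed before the fit, the log2 fold change of the 3p arm of mir-132 after 1 ppm O3 was 1.51 (SE 0.548, limma adjusted p = 0.104), and that after 2 ppm O3 was 0.54 (limma adjusted p = 0.408). Over all entries of the hairpin, mir-132 held 42.95 to 70.0 RPMMM in the FA pools, 126 to 189 RPMMM after 1 ppm O3 and 67.5 to 113 RPMMM after 2 ppm O3. The 1 ppm O3 pools lay above the FA pools, and the 2 ppm O3 pools overlapped the FA pools. mir-212 had a single entry, miR-212-5p, which was listed in 1 ppm O3 pool 1 only, at 31.6 RPMMM or 19 reads. Of the pair with the shared seed, miR-212-3p is not listed.

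Ratios were computed within each pool for 10 pairs of mature members, each tested without an adjustment for their number. The ratio of miR-146a-5p to miR-155-5p was 1.71, 1.54 and 2.08 in the FA pools, 2.32, 2.74 and 2.31 after 1 ppm O3 and 3.54, 4.31 and 5.81 after 2 ppm O3. It rose at each step without overlap, in 27 of 27 pairs (two-sided exact permutation p = 0.00119), the only one of the 10 ratios with all pairs in one direction. After 2 ppm O3 it was 1.34 higher than in FA on the log2 scale (SE 0.243).

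The ratio of miR-21-5p to miR-146b-5p was 12.1, 12.5 and 13.6 in the FA pools, 18.9, 17.3 and 20.4 after 1 ppm O3 and 16.9, 22.1 and 18.2 after 2 ppm O3. Both O3 groups lay above FA, by 0.57 (SE 0.0837) and 0.58 (SE 0.124) on the log2 scale (two-sided exact permutation p = 0.1 for each, the smallest possible), and they overlapped each other. The ratio of miR-21-5p to miR-155-5p was also higher than in FA without overlap in both O3 groups, at 220 ± 41.0 (SD, n = 3 pools) in FA, 379 ± 65.4 after 1 ppm O3 and 319 ± 29.2 after 2 ppm O3. By contrast, the ratio of miR-21-5p to miR-146a-5p was lower after 2 ppm O3, with a mean of 73.4, than in FA, with a mean of 126, by a log2 difference of -0.79 (SE 0.309). The ratio of miR-146b-5p to miR-155-5p overlapped between all exposures, with a log2 difference of -0.03 (SE 0.263) between 2 ppm O3 and FA.

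**Figure D3:**
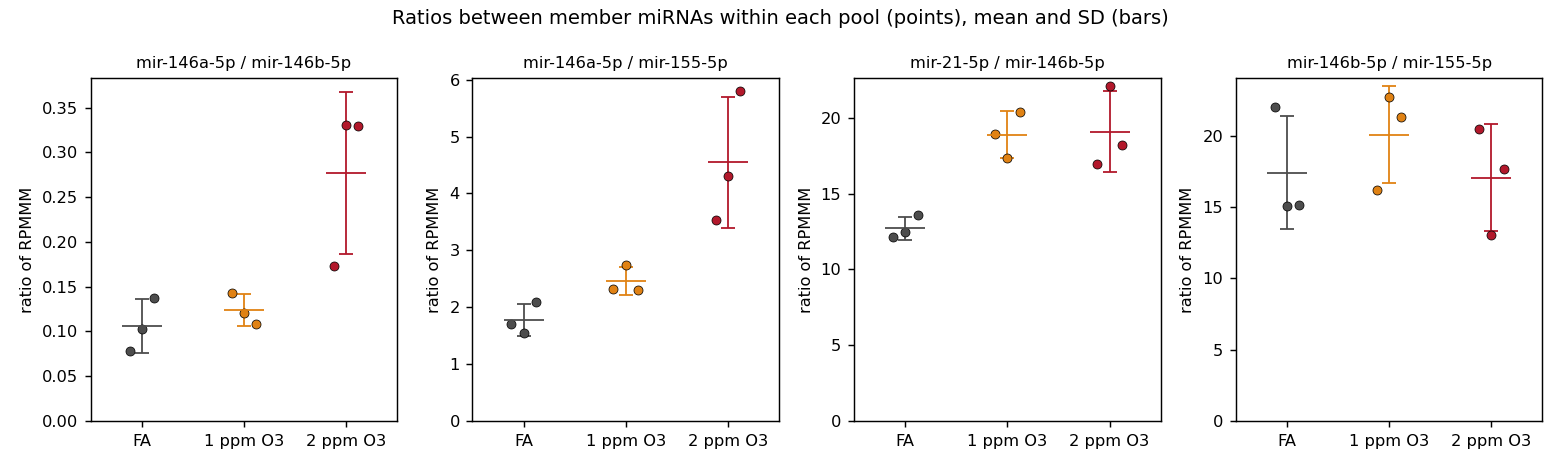
Ratios of RPMMM between mature members within each pool (points, y axis from 0), with the mean and SD of the 3 pools of each exposure (bars). miR-146a-5p rose against miR-155-5p at each concentration, from 1.54 to 2.08 in FA to 3.54 to 5.81 after 2 ppm O3, while the ratio of miR-146b-5p to miR-155-5p overlapped throughout.

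Over all 14 entries, 3 had a concentration trend at an adjusted p below 0.05, all falling (exact permutation test). Of the 461 entries tested, 28.6% had such a trend, with 75 entries falling and 57 rising. Besides miR-146b-5p and miR-155-5p, the member that passed was the isomiR miR-146b-5p_+_2, with 25 of 27 pairs falling (exact permutation adjusted p = 0.0338). It was listed at 0 in 2 ppm O3 pool 2, where the lowest value above 0 was 35.4 RPMMM. With median-of-ratios scaling, and without the 5 hairpins, miR-146b-5p was the only member that passed. The share of all entries with a trend under these scalings is not given here, so this count cannot be set against it.

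The isomiRs of miR-21-5p kept close to a fixed pattern. The unshifted sequence held 95.01% to 95.99% of the 5p arm in every pool. The entry with suffix +1 held 1.93% to 2.53%, the entry with suffix +2 0.857% to 1.19% and the entry with suffix -1 0.491% to 0.701%. The summed share of isomiRs was 4.36% ± 0.177 in FA (SD, n = 3 pools), 4.43% ± 0.168 after 1 ppm O3 and 4.59% ± 0.513 after 2 ppm O3. The pools of the 3 exposures overlapped. The difference of 0.229 percentage points between 2 ppm O3 and FA was below the SD of the 2 ppm O3 pools only. The sources used here do not state in which direction the suffix counts; if + means a start further downstream, the seed of the +1 form of miR-21-5p would be GCUUAUC in place of AGCUUAU.

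The isomiR share of miR-146b-5p was 3.86% ± 0.307 in FA, 4.41% ± 0.335 after 1 ppm O3 and 4.67% ± 1.44 after 2 ppm O3, with overlap. Of its isomiRs only the +1 form was above 0 in all pools. Set against the unshifted form alone, its share was 1.94%, 1.79% and 2.40% in the FA pools, 2.90%, 2.32% and 2.75% after 1 ppm O3 and 4.69%, 3.17% and 3.21% after 2 ppm O3. In 26 of 27 pairs it rose with the concentration (two-sided exact permutation p = 0.00357), which did not pass over the 68 arms compared (adjusted p = 0.081). After 2 ppm O3 this form rests on 29 to 49 reads per pool.

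**Figure D4:**
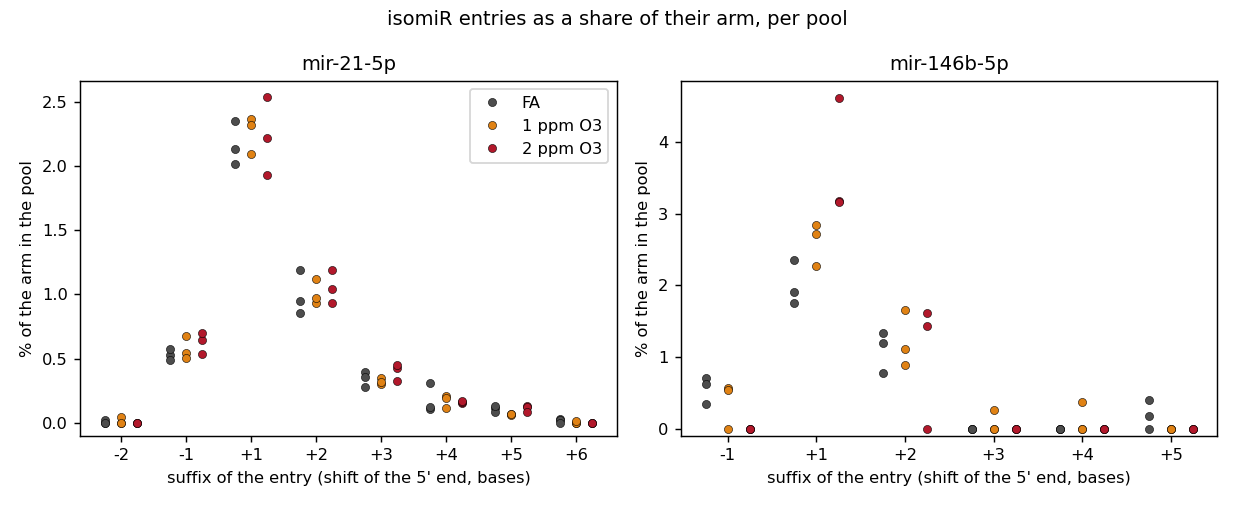
Share of each isomiR entry in its 5p arm in percent (y axis) by the suffix of the entry (x axis) for miR-21-5p (left) and miR-146b-5p (right), 1 point per pool. The shares of miR-21-5p overlap between exposures at the suffixes +1 and +2, and the +1 form of miR-146b-5p is highest in the 2 ppm O3 pools.

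Levels in FA had the order miR-21-5p (102457 ± 6067 RPMMM, SD, n = 3 pools), miR-146b-5p (8071.5 ± 796), miR-146a-5p (840 ± 172), miR-155-5p (472 ± 56.0), miR-21-3p (125 ± 76.1) and miR-132-3p (37.7 ± 35.3). The last pair overlapped and all other neighbours did not. After 2 ppm O3 the order was the same, with 892.6 ± 279 RPMMM for miR-146a-5p, 195 ± 34.6 for miR-155-5p, 90.7 ± 10.2 for miR-21-3p and 76.3 ± 33.2 for miR-132-3p. Mature miRNAs are of nearly the same length, so that no correction for length was made.

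The mature miRNAs whose pattern over the 9 pools was most like that of each member were found by Pearson's r of log2(RPMMM + 1) among 207 mature miRNAs of other hairpins. These values share the total of the pool and are a description. For miR-21-5p they were miR-532-5p (r = 0.987) and miR-99b-5p (r = 0.976), for miR-146b-5p let-7f-1-5p (r = 0.978) and let-7i-5p (r = 0.977), and for miR-155-5p miR-101a-3p (r = 0.973) and miR-10a-5p (r = 0.948). For miR-132-3p they were miR-744-5p (r = 0.926) and miR-27a-5p (r = 0.869). No miRNA came as close to miR-146a-5p, for which the highest values were 0.640 (miR-451, a miRNA of red blood cells) and 0.595 (miR-135b-5p).

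Other miRNAs of the response to Toll-like receptors and NF-κB were taken from a list of 17 hairpins, of which 16 are in the table, with 45 entries tested. After 1 ppm O3, 2 of the 45 were DE (4.44%, against 13.2% of all entries), both higher, where 10.4% of all entries were DE and higher. The mature one was miR-322-3p (log2 fold change 1.10, limma adjusted p = 0.0161), which had 1.22 without the 5 hairpins in the total (limma adjusted p = 0.0340). Its mean was 315 RPMMM in FA, 685 after 1 ppm O3 and 206 after 2 ppm O3. Against 1 ppm O3, it was DE and lower after 2 ppm O3 (log2 fold change -1.71, limma adjusted p = 0.000565). Compared with FA, it was not DE after 2 ppm O3 (-0.60, limma adjusted p = 0.0702). In the 2 ppm O3 comparison with FA, 18 of the 45 were DE, against 43.6% of all entries, and of the 45 entries 3 were DE and higher (6.67%, against 14.3%) and 15 DE and lower (33.3%, against 29.3%), with a median log2 fold change of -1.10 against -0.83 for all entries. Without the 5 hairpins in the total, 49 entries of the list were tested, of which 5 were DE and higher and 6 DE and lower. Of all 441 entries tested in that setting, 43 were DE and higher and 26 DE and lower. The median of the list was -0.24 against -0.07 for all entries. Those lower as deposited included let-7e-5p (log2 fold change -1.96), miR-125a-5p (-1.78), let-7i-5p (-1.36) and miR-221-3p (-1.10). Without the 5 hairpins these log2 fold changes were -1.10, -0.92, -0.50 and -0.24, of which that of miR-221-3p no longer passed the adjusted p (limma adjusted p = 0.292). The mature entry DE and higher after 2 ppm O3 was miR-29b-3p (1.76 as deposited and 2.62 without the 5 hairpins), which is listed for both genomic copies with the same reads. miR-223-3p, which is abundant in neutrophils, was at 721 ± 181 RPMMM in FA and 671 ± 27.6 RPMMM after 2 ppm O3 (log2 fold change -0.08, limma adjusted p = 0.793). Its direction turned with the scaling, to 0.62 with median-of-ratios scaling (limma adjusted p = 0.0551) and 0.79 without the 5 hairpins (limma adjusted p = 0.0227).

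Markers of the cells from which lung EVs can come were summed in each pool as well. The haematopoietic markers mir-142, mir-223, mir-150 and mir-342, 4 of 4 in the table, summed to 2319 to 3516 RPMMM in FA, 2688 to 3356 after 1 ppm O3 and 1654 to 1999.7 after 2 ppm O3. Taken singly, mir-142 and mir-342 were lower after 2 ppm O3 than in FA without overlap. mir-223 overlapped FA in both O3 groups, at 607 to 1146 RPMMM in FA, 1065 to 1548 after 1 ppm O3 and 719 to 860 after 2 ppm O3. mir-150, which is abundant in lymphocytes, reached at most 24.4 RPMMM after 1 ppm O3 and was at 0 in FA and 2 ppm O3. That level is below the lowest values above 0 of the 2 ppm O3 pools, 34.3 to 37.3 RPMMM. The epithelial markers, 10 of 10 in the table, summed to 79990 to 89886 RPMMM in FA, 60117 to 64933 after 1 ppm O3 and 40380 to 44178 after 2 ppm O3, and these sums did not overlap. Taken singly, 3 of the 10 epithelial hairpins (mir-200a, mir-200b and mir-200c) were lower at each step without overlap, and 8 of the 10 were lower after 2 ppm O3 than in FA without overlap. The remaining hairpins overlapped FA, namely mir-34b, at 5307 to 6826 RPMMM in FA and 6556 to 7372 after 2 ppm O3, and mir-34c. These counts were not set against all hairpins of the table and are a description only. Over all 461 entries tested the median log2 fold change after 2 ppm O3 was -0.83. The log2 ratio of the epithelial sum of 2 ppm O3 to FA was -0.99 as deposited and -0.13 without the 5 hairpins, and that of the haematopoietic markers was -0.64 and 0.22. The erythroid markers mir-451, mir-486 and mir-144, 3 of 3 in the table, summed to 884 to 1822 RPMMM in FA, 150 to 343 after 1 ppm O3 and 158 to 948 after 2 ppm O3. Of these, mir-144 was at 0 to 44.1 RPMMM in FA and at 0 in all O3 pools. The endothelial marker mir-126 summed to 112 to 314 RPMMM in FA, 445 to 938 after 1 ppm O3 and 764 to 912 after 2 ppm O3. Muscle markers, 3 of 4 in the table, summed to 235 to 6029 RPMMM in FA, 145.9 to 217 after 1 ppm O3 and 0 to 179 after 2 ppm O3. The log2 ratio of 2 ppm O3 to FA for the erythroid sum was -1.33 as deposited and -0.51 without the 5 hairpins. Under the same 2 scalings it was 2.13 and 3.00 for mir-126 and -5.38 and -4.47 for the muscle sum. The part of these cell types in the values of the members was not tested, and fewer EVs of a cell type cannot be told apart from less of a miRNA per EV.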

How the data were processed

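Small RNA of BALF EVs was sequenced by the authors in 9 pools. Reads were trimmed, aligned to mm9 and quantified with miRquant 2.0, and the deposited table gives RPMMM (RPM over miRNA-mapped reads only) for each pool, with mature miRNAs and isomiRs as separate entries. Per the labels the pools fall into FA, 1 ppm O3 and 2 ppm O3. Low values lay on steps of 1 read for 68.5% to 83.7% of them, from which the depth was estimated; whole reads were not taken as recovered.

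From these values, a limma model (version 3.58.1, R 4.3.3) of all 9 pools with a variance trend was fitted to log2(RPMMM + 1) of the 461 entries whose mean exceeded 50 RPMMM, with Benjamini-Hochberg adjustment over all these entries. Fold changes are on the log2(RPMMM + 1) scale, and for an entry listed at 0 in some pools their size depends on the 1 that was added. For shares, ratios within a pool and trends, two-sided exact permutation tests were used. The fits and the trend test were checked on simulated data. Sequences are from RefSeq (GRCm38.p6) and positions from the mm9 annotation. The entries named are members, their most similar mature miRNAs, some of the DE mature miRNAs of the list of 17 hairpins, and miR-223-3p of that list, which was not DE. The members, lists and tests were chosen with earlier results of these data known. Alternatives covered the pseudocount, the filter, the scaling, isomiRs, the model and each pool left out. Other small RNAs were not analysed here. Tables were made with pandas 2.3.3 and numpy 2.4.6, and figures with matplotlib 3.10.9, in Python 3.11.15.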

Additional observations from a re-analysis of the deposited data

How the results depend on the processing

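The number of DE members after 2 ppm O3 compared with FA was 2, and became 4 with no filter, 0 with median-of-ratios scaling, 1 with the total taken without mir-2137 (against 70 higher and 97 lower of all 472 entries), 0 without the 5 hairpins, and 5 with the adjusted p alone (against 246 of all 461 entries). The other alternatives, leaving out each pool included, gave 2. With no filter the 4 were of 32 members, against 71 higher and 179 lower of all 1308 entries. The entries added were miR-146b-3p (35.0 to 80.2 RPMMM in FA) and miR-146b-5p_-_1 (27.2 to 65.7 RPMMM in FA). Both were at 0 in all 2 ppm O3 pools, where the lowest value above 0 was 34.3 to 37.3 RPMMM. With the adjusted p alone the number of members was 1 after 1 ppm O3 compared with FA, against 79 of all entries, and 6 for 2 ppm against 1 ppm O3, against 205. For this last comparison, leaving out 1 pool gave 0 to 1, the 1 being miR-21-5p_+_1 without 2 ppm O3 pool 3. The members with a trend went from 3 to 1 with median-of-ratios scaling and to 1 without the 5 hairpins, and were 2 to 3 when 1 pool was left out. The shares of all entries with a trend in these settings are not given here. With values under 40 RPMMM set to 40, chosen after the data were seen, no number of DE members changed.

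Directions turned as follows, in log2 fold changes, and no turned value passed the test. For 2 ppm O3 compared with FA, miR-21-5p was 0.12 without the 5 hairpins, miR-21-3p was 0.39 with median-of-ratios scaling, 0.0083 without mir-2137 and 0.56 without the 5 hairpins, and miR-146a-5p was -0.0072 with arm sums. For 2 ppm against 1 ppm O3, miR-21-3p was 0.55, 0.19 and 0.68 under these 3 scalings, miR-155-5p was 0.090 without the 5 hairpins, and miR-132-3p was 0.073 with median-of-ratios scaling and 0.21 without the 5 hairpins. Leaving out 1 pool gave miR-21-3p between -0.61 and 0.22 after 1 ppm O3 and between -0.67 and 0.16 after 2 ppm O3 compared with FA, and between -0.31 and 0.20 for 2 ppm against 1 ppm O3. It gave miR-146a-5p between -0.28 and 0.0024 after 1 ppm O3 and between -0.13 and 0.34 after 2 ppm O3. The difference from FA in the isomiR share of miR-21-5p after 1 ppm O3 lay between -0.019 and 0.158 percentage points, and that in the share of miR-21-3p after 2 ppm O3 between -0.0093 and 0.042. The scalings differ in what the values of a pool are divided by. Median-of-ratios scaling uses the median ratio over entries above 0 in every pool, and the others use a total. The cause of the other changes was not tested. No paired analysis was made, because the pools of different exposures hold different mice. The labels give no replicate numbers, and the pool numbers used here follow the order of the samples. Depth limits entries below about 37.3 RPMMM in the 2 ppm O3 pools.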
